A study of Sus scrofa with 4 samples.

Results

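The immediate-early transcription factors FOS, FOSB, JUN, JUNB, JUND, EGR1, ATF3, IER2, NR4A1 and MYC were followed in 4 RNA-seq libraries of pig (Sus scrofa) ovary in diestrus, 2 from leptin overexpression sows and 2 from wild type (WT) sows. The genes were taken by their symbol in the deposited table, and 9 of the 10 were found among its 22309 rows. All 9 passed the filter on low counts that left 13937 genes for testing. No row carried the symbol JUND, which was not analysed here. The leptin overexpression animals were second-generation offspring of crosses that started from re-cloned transgenic boars mated with sows of a Duroc, Landrace and Yorkshire cross. The promoter of the transgene and the ages of the sows are not given in the sources used here. The labels name no treatment. They do not state that the libraries of a group came from different sows, so the p-values rest on a spread between libraries that may be only technical.

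Immediate-early genes are switched on by hormones, growth factors and stress without the need for new protein. Kinases of the MAPK pathway and cyclic AMP act on factors already in the nucleus, among them SRF, its ELK partners and CREB, and the transcripts appear and decay quickly. FOS and JUN proteins pair to form AP-1, which binds DNA through a basic region and a leucine zipper. In granulosa cells of several mammals these genes respond to the luteinising hormone surge, and in the cow the corpus luteum induces them after prostaglandin F2 alpha, the signal for luteal regression.

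Total counts lay between 16493113 and 16797511 per library, and the scaling factors of the TMM method were 0.925 and 0.809 in leptin overexpression replicates 1 and 2 and 1.34 and 0.998 in WT replicates 1 and 2. The libraries did not sort by genotype over all genes. Leptin overexpression replicate 1 correlated more closely with WT replicate 2 (Pearson's r = 0.941 across 13937 genes, a description with no test) than with leptin overexpression replicate 2 (0.936), and the WT libraries correlated at 0.917. LEP, the overexpressed gene, had 55 and 124 counts in leptin overexpression replicates 1 and 2 and 0 and 3 counts in WT replicates 1 and 2. The tissue label was checked on luteal genes, whose 10 matched members summed to 42502 and 45510.0 CPM (counts scaled to a fixed library size, TMM-normalised) in leptin overexpression and 20457 and 48573 CPM in WT, while the oxytocin gene OXT had 0 counts in 3 of the 4 libraries.

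No immediate-early gene passed the test of a difference between the genotypes. With edgeR's quasi-likelihood test 0 of the 9 genes passed an adjusted p of 0.05, against 0.0287% of all genes tested, and 0 of the 9 had an unadjusted p under 0.05, against 9.36%. DESeq2 also called 0 of the 9, against 2.19% of all genes tested. So did limma-voom, which called 1 of the 13937 genes tested. At an unadjusted p under 0.05 DESeq2 had FOSB alone of the 9, beside 700 higher and 792 lower of the 13937 genes tested. The DESeq2 adjusted p of FOSB was 0.168. The values of the groups overlapped for all 9 genes, whereas 45.1% of all genes tested had groups that did not overlap in CPM. The larger difference between libraries of the same genotype exceeded the difference between the genotypes for all 9 genes on the log2 scale, which held for 72.5% of all genes tested. What did recur was an order of libraries. For 8 of the 9 genes leptin overexpression replicate 1 and WT replicate 2 were both above the other 2 libraries in CPM, against 16.7% of all genes tested. Leptin overexpression replicate 2 was the lowest of the 4 libraries for 6 of the 9, against 34.2%.

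**Figure D1:**
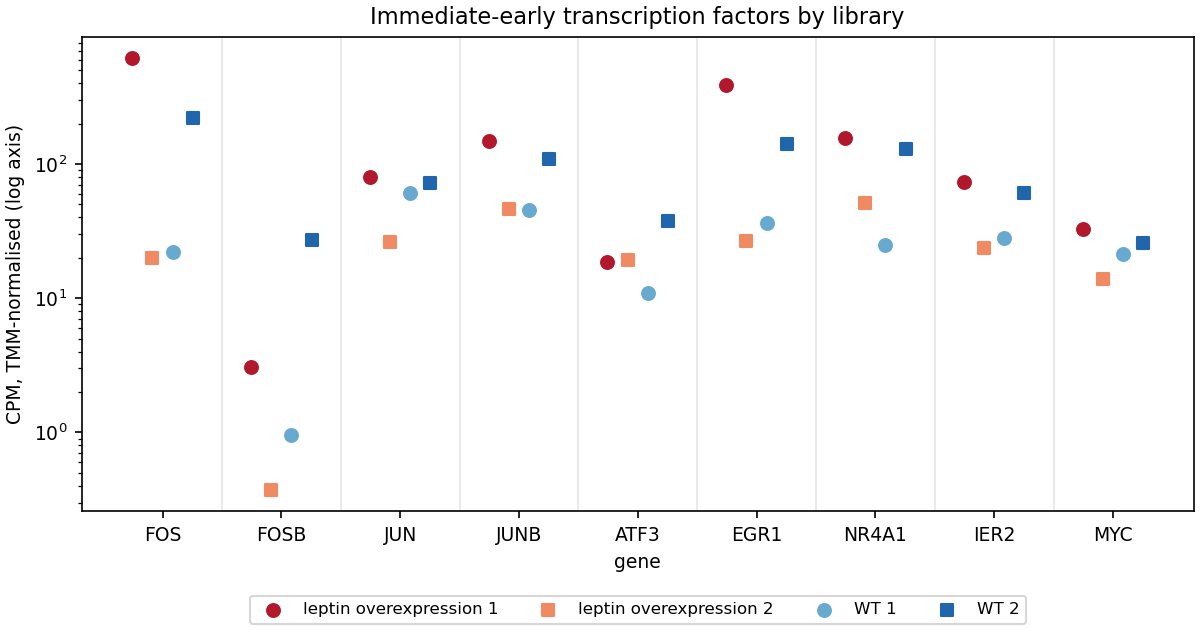
TMM-normalised CPM on a log axis for each of the 9 genes, with 1 point per library, circles for replicate 1 and squares for replicate 2. FOS spans 19.8 to 613 CPM, and for every gene but ATF3 leptin overexpression replicate 1 and WT replicate 2 are the upper points.

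Among the FOS family, FOS had the widest range between the libraries of one genotype in leptin overexpression, and FOSB in WT. FOS, the inducible partner of JUN proteins in AP-1, was at 613 and 19.8 CPM in leptin overexpression replicates 1 and 2, against 22.1 and 219.8 CPM in WT replicates 1 and 2. The rounded counts behind these values were 9395 and 265 in leptin overexpression and 487 and 3684 in WT. Leptin overexpression replicate 1 was thus the highest and leptin overexpression replicate 2 the lowest of the 4 libraries. The libraries differed 31-fold within leptin overexpression and 9.95-fold within WT. Only 0.1% of all genes tested differed at least as much as FOS between the leptin overexpression libraries, and 1.15% between the WT libraries. The group means were 317 ± 419.7 CPM in leptin overexpression and 121 ± 139.8 CPM in WT (SD, n = 2 each), and the fitted log2 fold change of leptin overexpression over WT was 1.39 (SE 1.77, edgeR adjusted p = 0.807). It was 0.62 with limma-voom and 0.22 and 0.19 on log2(FPKM + 1) and log2(FPKM + 0.1).

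FOSB, the paralog of FOS best known from the brain, was far scarcer. It had 47 counts (exact Poisson 95% interval 34.5 to 62.5) and 5 counts (1.62 to 11.7) in leptin overexpression replicates 1 and 2, against 21 counts (13.0 to 32.1) and 459 counts (418 to 503) in WT replicates 1 and 2. These intervals cover counting error only. In CPM that was 3.07 and 0.374 in leptin overexpression and 0.953 and 27.4 in WT, so WT replicate 2 alone was above 5 CPM. Between the WT libraries FOSB differed 28.7-fold, a spread that 0.237% of all genes tested reached. Its log2 fold change of -3.02 (SE 1.74, edgeR adjusted p = 0.607) was the largest of the 9 in size and rested on WT replicate 2. Without that library it was 0.85 (adjusted p = 0.898), and without WT replicate 1 it was -3.98 and past the threshold (adjusted p = 5.65e-06), in a fit that holds none of the spread within WT.

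The JUN family varied less. JUN, the AP-1 subunit that can also pair with itself, was at 79.7 and 26.3 CPM in leptin overexpression and at 60.6 and 72.6 CPM in WT. Leptin overexpression replicate 2 was the low library, and the other 3 lay close together. The WT libraries differed 1.2-fold, a spread that 66.7% of all genes tested reached, and with library totals alone or in the deposited FPKM the order of the WT libraries turned round. JUNB, which often opposes JUN on AP-1 sites, was at 148 and 46.2 CPM in leptin overexpression and at 45.2 and 109 CPM in WT, so a high and a low library stood in each genotype. The log2 fold changes were -0.33 for JUN (SE 0.51, edgeR adjusted p = 0.837) and 0.33 for JUNB (SE 0.62, adjusted p = 0.865). On log2(FPKM + 1) and log2(FPKM + 0.1) they were -0.89 and -0.95 for JUN and -0.17 and -0.18 for JUNB. The median over all genes tested was -0.30 and -0.40 in these FPKM fits. JUN was counted on a row of an assembled gene whose name rests on a sheep protein, and JUNB was the only one of the 9 whose estimated counts were not whole in every library, so its reads may be shared with other rows.

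Levels of different genes were compared in the deposited FPKM (fragment counts corrected for transcript length and sequencing depth), since CPM is not corrected for length. JUNB was among the top 2 of the 9 genes in every library, at 131 and 35.8 FPKM in leptin overexpression and 57.8 and 104 FPKM in WT. FOS stood above JUNB in leptin overexpression replicate 1 (267 FPKM) and in WT replicate 2 (111 FPKM), and below it in leptin overexpression replicate 2 (7.15 FPKM) and WT replicate 1 (13.3 FPKM). FOSB was the lowest of the 9 in every library. FOS and FOSB together came to 1.71 and 0.168 times the summed FPKM of JUN and JUNB in leptin overexpression replicates 1 and 2, against 0.158 and 0.922 times in WT replicates 1 and 2. This ratio of FOS and FOSB to JUN and JUNB thus lay as far apart within a genotype as between genotypes. Other measured relatives, FOSL1, FOSL2 and ATF3 among them, were not part of it. Across the 9 genes the summed FPKM was 653 and 95.8 in leptin overexpression and 170.1 and 403 in WT.

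**Figure D2:**
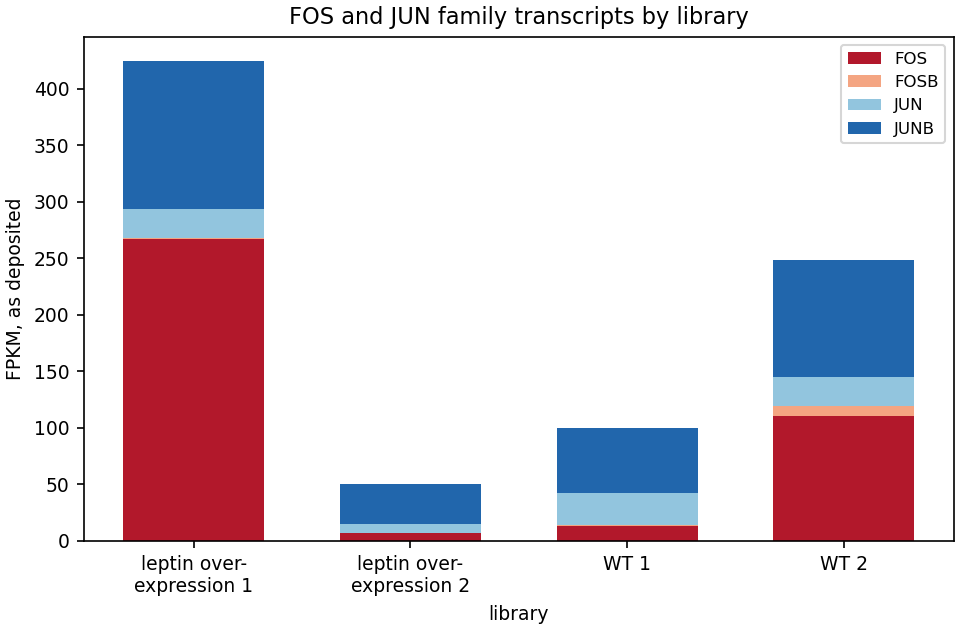
Deposited FPKM of FOS, FOSB, JUN and JUNB stacked for each library. FOS fills most of the bar in leptin overexpression replicate 1 (267 FPKM) and little of it in leptin overexpression replicate 2 (7.15) and WT replicate 1 (13.3).

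Mean FPKM over the 4 libraries was 99.6 for FOS, 82.1 for JUNB, 45.7 for EGR1, 32.5 for NR4A1, 23.7 for IER2, 22.0 for JUN, 13.2 for MYC, 9.31 for ATF3 and 2.48 for FOSB, but these means are set mostly by the libraries with high values. FOS ranked 1 of 9 in leptin overexpression replicate 1 and in WT replicate 2, 5 in leptin overexpression replicate 2 and 6 in WT replicate 1. EGR1 ranked 3 and 7 in leptin overexpression and 5 and 4 in WT. By mean rank, which weights the libraries equally, the order was JUNB (1.5), FOS (3.25), NR4A1 and IER2 (4.0 each), JUN (4.5), EGR1 (4.75), MYC (6.75), ATF3 (7.25) and FOSB (9.0). Of the 8 pairs of neighbours in that order, 1 kept its order in every library, ATF3 above FOSB.

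ATF3, a stress-induced relative of the AP-1 proteins that also represses promoters, did not follow the others in leptin overexpression. It was at 18.6 and 19.1 CPM in leptin overexpression, against 10.9 and 37.4 CPM in WT. The leptin overexpression libraries thus lay close together and between the WT libraries. They differed less than 95.8% of all genes tested, while the WT libraries differed 3.42-fold. Its log2 fold change was -0.35 (SE 0.56, edgeR adjusted p = 0.839), and 0.76 without WT replicate 2.

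EGR1, a zinc finger factor needed in the mouse pituitary for luteinising hormone production, followed FOS. It was at 385 and 26.5 CPM in leptin overexpression and at 36.3 and 142 CPM in WT. The high library of each genotype was the same one as for FOS, with a 14.5-fold difference within leptin overexpression and 3.9-fold within WT. The log2 fold change was 1.21 (SE 1.32, edgeR adjusted p = 0.769), and the sign changed to -1.74 without leptin overexpression replicate 1. It was 0.47 with limma-voom and 0.12 and 0.08 on log2(FPKM + 1) and log2(FPKM + 0.1).

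NR4A1, an orphan nuclear receptor that binds promoters of steroidogenic genes, was at 157 and 51.7 CPM in leptin overexpression and at 25.1 and 128 CPM in WT. WT replicate 1 was the lowest library, below leptin overexpression replicate 2. Its log2 fold change of 0.44 (SE 0.84, edgeR adjusted p = 0.867) became 2.04 without WT replicate 2 and then passed the threshold (adjusted p = 0.0384), a fit that again holds none of the spread within WT. Without WT replicate 1 it was -0.31.

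IER2, a small nuclear protein of the primary response, was at 73.6 and 23.8 CPM in leptin overexpression and at 28.4 and 60.4 CPM in WT, on a row of an assembled gene. Its log2 fold change was 0.14 (SE 0.59, edgeR adjusted p = 0.945). MYC, the growth regulator that works as a dimer with MAX, was at 32.6 and 13.9 CPM in leptin overexpression and at 21.3 and 25.7 CPM in WT. As for JUN, leptin overexpression replicate 2 was the low library, the WT libraries were close (1.21-fold), and their order turned round with library totals alone and in FPKM. Its log2 fold change was -0.01 (SE 0.47, edgeR adjusted p = 0.994). On log2(FPKM + 1) and log2(FPKM + 0.1) it was -0.53 and -0.58, against -0.30 and -0.40 over all genes tested.

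Of the 9 genes, 5 had higher and 4 lower fitted values in leptin overexpression, or 4 and 5 with library totals alone and 3 and 6 in FPKM. The fitted values had a median log2 fold change of 0.14, against -0.01 over all genes tested. With library totals alone it was -0.17, against -0.43 over all genes. On log2(FPKM + 1) it was -0.37, against -0.30, and on log2(FPKM + 0.1) -0.40, against -0.40. The SE of the log2 fold change was above the median of all genes tested (0.47) for each of the 9, with a median of 0.62. Leaving out leptin overexpression replicate 1 made all 9 values negative (median -0.88), and leaving out WT replicate 2 made 8 of 9 positive (median 0.85). Without leptin overexpression replicate 2 the median was 0.74, and without WT replicate 1 it was -0.31. An exact permutation test of any single gene could not go below p = 0.333 with 2 libraries against 2.

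**Figure D3:**
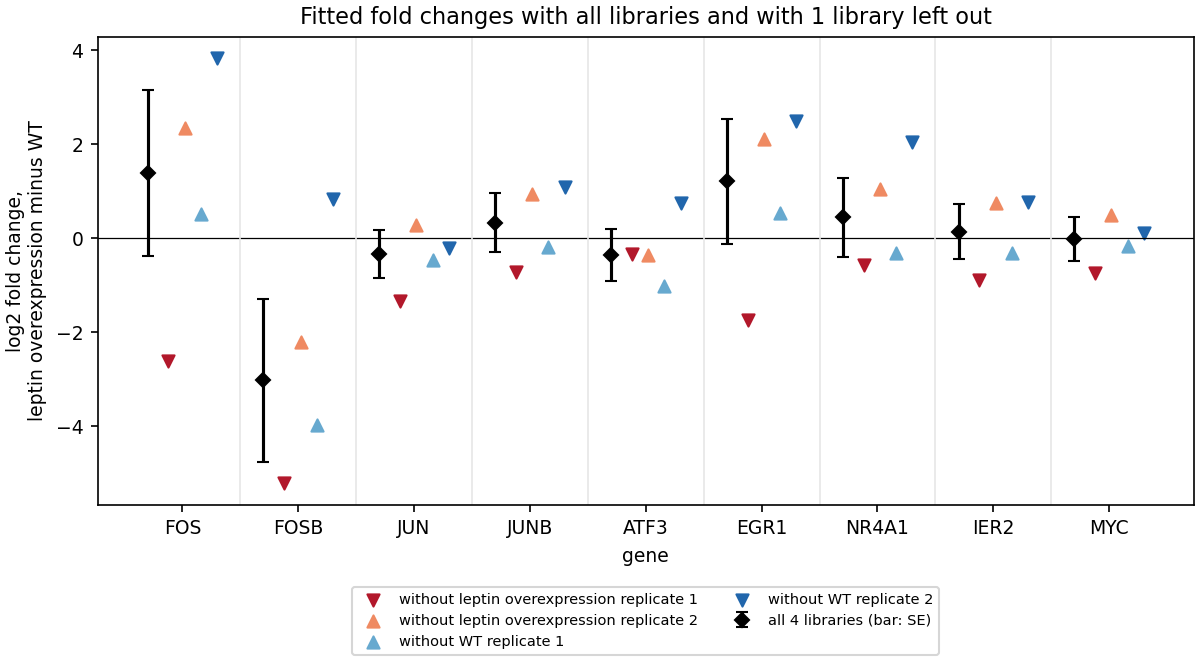
Log2 fold change of leptin overexpression minus WT for each gene, with all 4 libraries (diamond, bar 1 SE) and with each library left out (triangles). The FOS value moves between -2.60 and 3.84 with the library left out.

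Within genotypes, 8 of the 9 genes differed by at least 2-fold between the leptin overexpression libraries, against 23% of all genes tested, and 7 of the 9 between the WT libraries, against 18.7%. The median absolute log2 difference was 1.62 in leptin overexpression and 1.76 in WT, against 0.55 and 0.42 over all genes tested. For 6 genes, FOS, FOSB, JUNB, EGR1, IER2 and NR4A1, leptin overexpression replicate 1 was at least 2-fold above replicate 2 and WT replicate 2 at least 2-fold above replicate 1. Of all genes tested 1.92% had that order. With upper-quartile factors 5 of the 9 had it (1.79% of all genes), and 4 with library totals alone (1.49%) and in the deposited FPKM (1.35%), where JUNB and IER2 no longer did. With any size of difference it held for 8 of the 9, against 25.2% of all genes tested. Upper-quartile factors gave 9 of 9 (22.7% of all genes), and library totals alone and the deposited FPKM gave 7 of 9 (16.6% and 16.4%).

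**Figure D4:**
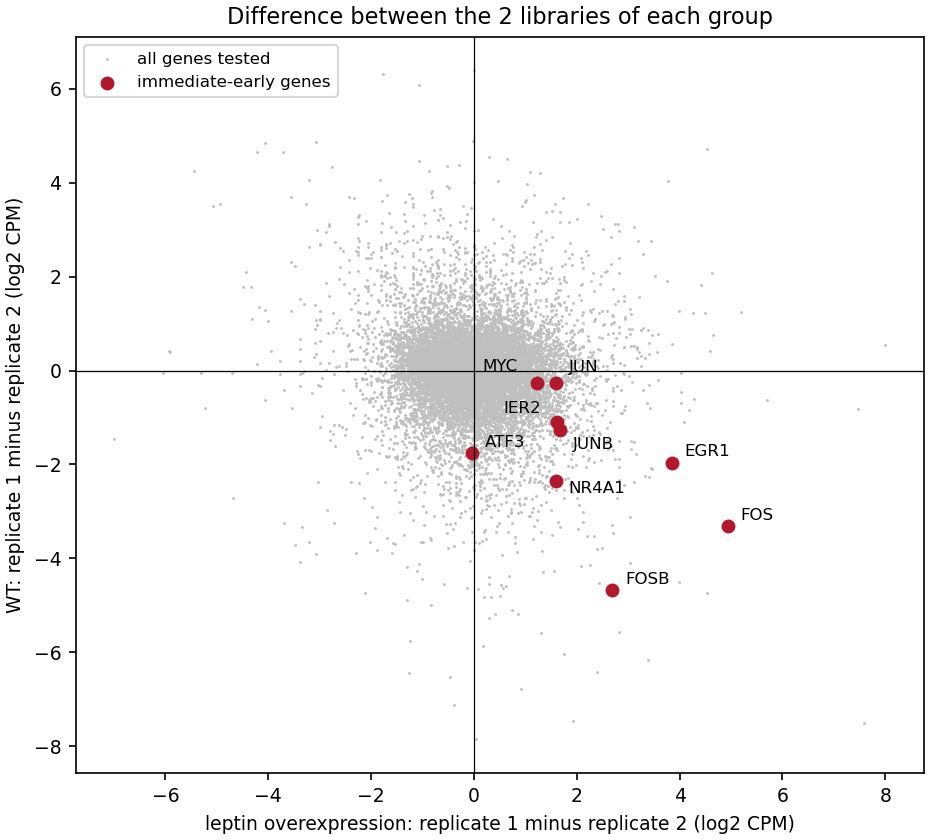
Log2 CPM of replicate 1 minus replicate 2, in leptin overexpression on the horizontal axis and in WT on the vertical axis, for 13937 genes (grey) and the 9 immediate-early genes (red). FOS, FOSB and EGR1 lie farthest into the lower right, and ATF3 lies beside the vertical zero line.

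Other genes of the same response were read from 8 lists with 111 tested genes. By edgeR 0 passed the threshold in either direction, and 6 had an unadjusted p under 0.05, or 5.41% against 9.36% of all genes tested. DESeq2 called 3, or 2.70% against 2.19%, among them SPP1 and TFRC, and limma-voom called 0. Both shares lie near or under those of all genes. The order counted below is leptin overexpression replicate 1 over replicate 2 and WT replicate 2 over replicate 1, by any size. Primary response genes and feedback inhibitors often showed it, in 17 of 24 and 11 of 16 tested genes. So did 6 of 11 paralogs of the 9 genes, against 25.2% of all genes tested. The upstream kinases and factors showed it in 6 of 18, partners of AP-1 in 2 of 9, the MYC network in 3 of 9, AP-1 targets in 5 of 12 and MYC targets in 2 of 12, several of them near or under that share. With library totals alone, where 16.6% of all genes had the order, the primary response genes showed it in 16 of 24, the feedback inhibitors in 7 of 16 and the upstream genes in 1 of 18.

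Among the paralogs, EGR2 and EGR3, named after their values were seen, had the order with at least 2-fold differences. EGR2 was at 10.3 and 1.94 CPM in leptin overexpression and 3.45 and 13.5 CPM in WT. EGR3 was near the floor, with 19 and 1 counts in leptin overexpression and 9 and 23 counts in WT. FOSL2, a later-acting FOS relative and the most abundant paralog, was at 102 and 45.6 CPM in leptin overexpression and 164.6 and 114.5 CPM in WT, an order of its own. IER5, a primary response relative of IER2, was at 33.3 and 19.3 CPM in leptin overexpression and 20.7 and 32.6 CPM in WT. NR4A3 had the largest change of the list, at 7.12 and 52.3 CPM in leptin overexpression and 1.54 and 12.8 CPM in WT (log2 fold change 2.05, SE 1.33, edgeR adjusted p = 0.639), and in leptin overexpression its order was the reverse of that of NR4A1.

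Among the other primary response genes, RHOB, a small GTPase, was at 212 and 159 CPM in leptin overexpression and 104.3 and 169 CPM in WT, and CEBPB, a leucine zipper factor, at 189.7 and 147 CPM in leptin overexpression and 127.5 and 257 CPM in WT. ARC, a neuronal immediate-early gene, had the largest fitted change at a very low level, 13 and 0 counts in leptin overexpression and 2 and 58 in WT. Its 0 allows up to 3 counts, or 0.224 CPM. GADD45A and GADD45B, growth arrest genes, were the genes of this list with an unadjusted edgeR p under 0.05, and neither showed the order of libraries seen for FOS. GADD45A was at 131 and 159 CPM in leptin overexpression and 27.6 and 78.4 CPM in WT (log2 fold change 1.45, SE 0.51, edgeR adjusted p = 0.429), and GADD45B at 90.1 and 74.0 CPM in leptin overexpression and 40.3 and 23.6 CPM in WT (1.36, SE 0.40, adjusted p = 0.328).

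The feedback genes act on the kinases or transcripts of this response. DUSP1, a phosphatase that inactivates MAP kinases, was at 399 and 116 CPM in leptin overexpression and 41.2 and 206 CPM in WT (log2 fold change 1.06, SE 0.86, edgeR adjusted p = 0.682). As for FOS, leptin overexpression replicate 1 and WT replicate 2 were the high libraries. ZFP36L1, which speeds the decay of transcripts with AU-rich elements, was at 137 and 121 CPM in leptin overexpression and 148 and 154 CPM in WT, with little difference between libraries. DUSP2 had the largest change of the list at a low level, 2.42 and 7.99 CPM in leptin overexpression and 1.497 and 2.69 CPM in WT (1.31, SE 0.76, adjusted p = 0.599).

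The upstream genes differed less. MAPK3, or ERK1, was at 233 and 149 CPM in leptin overexpression and 169 and 189.5 CPM in WT, and RPS6KA3, a kinase downstream of ERK, at 167 and 276 CPM in leptin overexpression and 83.8 and 150.3 CPM in WT. CREM, a cyclic AMP response factor, had the largest change of that list, at 32.1 and 43.3 CPM in leptin overexpression and 13.2 and 21.1 CPM in WT (log2 fold change 1.14, SE 0.41, edgeR adjusted p = 0.446). Among the partners, ATF4 was at 83.6 and 94.4 CPM in leptin overexpression and 79.2 and 123 CPM in WT and MAF at 40.3 and 46.4 CPM in leptin overexpression and 43.1 and 42.6 CPM in WT. BATF, on a row of an assembled gene, had the largest change of the partners, at 0.392 and 0.448 CPM in leptin overexpression and 0.907 and 2.39 CPM in WT. MAX, the partner of MYC, was at 58.2 and 51.8 CPM in leptin overexpression and 52.8 and 52.8 CPM in WT, and so did not share the spread of MYC. MLX was at 59.6 and 51.0 CPM in leptin overexpression and 68.6 and 71.9 CPM in WT, and MNT, which competes with MYC for MAX, at 6.07 and 3.66 CPM in leptin overexpression and 11.3 and 8.41 CPM in WT.

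Known targets of AP-1 had values that were spread in several orders. VIM, an intermediate filament protein, was at 2437 and 2133 CPM in leptin overexpression and 2319 and 2015 CPM in WT, and TIMP1, a protease inhibitor, at 8480.4 and 8105 CPM in leptin overexpression and 4309.7 and 9676 CPM in WT. SPP1, osteopontin, had the largest change, at 15.99 and 25.2 CPM in leptin overexpression and 330.4 and 33.2 CPM in WT (log2 fold change -3.14, SE 1.06, edgeR adjusted p = 0.477), with WT replicate 1 far above the other 3 libraries. Of the MYC targets, EIF4A1 was at 331 and 377 CPM in leptin overexpression and 459.8 and 301 CPM in WT, and NPM1 at 313 and 703 CPM in leptin overexpression and 338.5 and 186 CPM in WT, the highest in leptin overexpression replicate 2, where MYC was lowest. TFRC, the transferrin receptor, was at 146 and 259 CPM in leptin overexpression and 57.3 and 56.3 CPM in WT (log2 fold change 1.83, SE 0.43, edgeR adjusted p = 0.225).

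**Figure D5:**
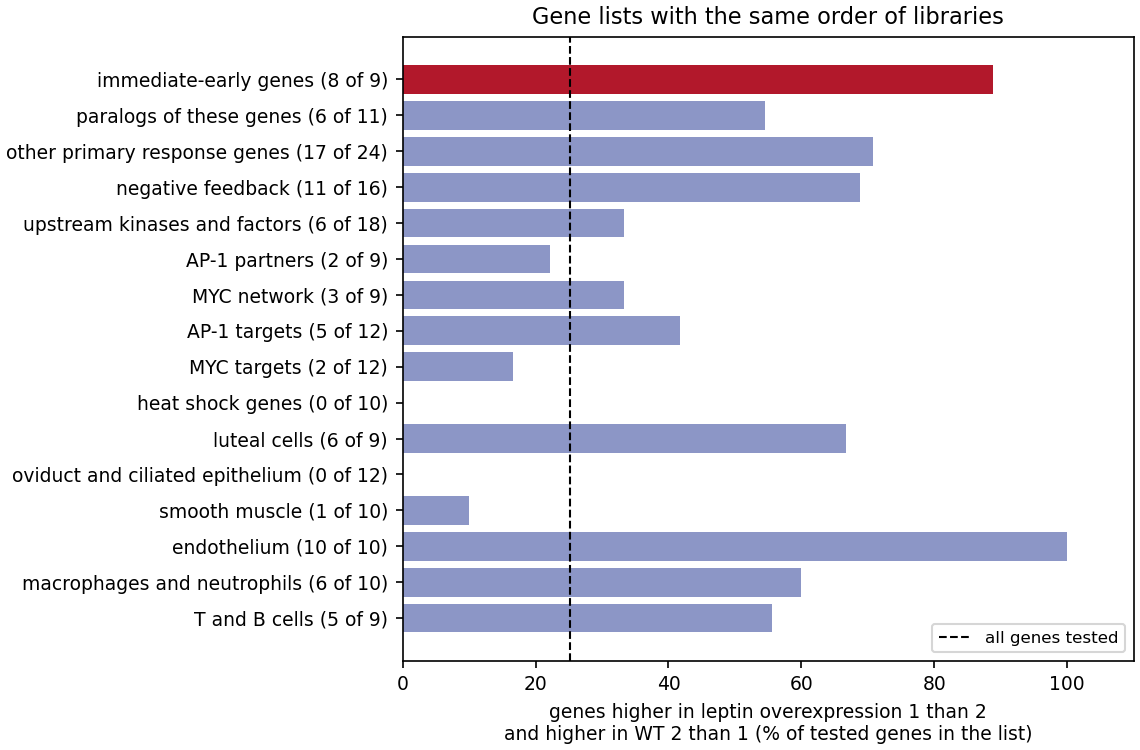
Share of the tested genes of each list that were higher in leptin overexpression replicate 1 than 2 and higher in WT replicate 2 than 1, in TMM-normalised log2 CPM, with counts in the labels and the share of all genes tested (25.2%) as a dashed line. The 9 immediate-early genes, with 8, lie above the line, as do the 10 endothelial genes, with 10, and most other lists. Below the line lie the AP-1 partners, MYC targets, heat shock genes, oviduct and ciliated epithelium and smooth muscle. Lists with fewer than 5 tested genes are not drawn.

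Cell type markers and heat shock genes were read in the same libraries. Fewer cells of a type and less RNA per cell cannot be told apart in such tissue. All 10 endothelial markers had this order by any size with TMM factors (25.2% of all genes tested), and 8 of 10 with library totals alone (16.6%). With TMM factors, leptin overexpression replicate 1 and WT replicate 2 were both above the other 2 libraries for 8 of 10 (16.7% of all genes tested). Against 6 of the 9 immediate-early genes, 3 of the 10 endothelial markers had the order with at least 2-fold differences (1.92% of all genes tested). Their summed level was 1061 and 495 CPM in leptin overexpression and 822 and 1518 CPM in WT, KDR was at 242 and 85.8 CPM in leptin overexpression and 128 and 314.9 CPM in WT, PECAM1 at 196 and 138 CPM in leptin overexpression and 232 and 289.8 CPM in WT, and CDH5 at 122.5 and 50.1 CPM in leptin overexpression and 134 and 194 CPM in WT. No endothelial marker was at 0 counts. The haemoglobin gene HBB was at 229 and 72.6 CPM in leptin overexpression and 147 and 299 CPM in WT, and ALAS2, of red blood cells, at 3.46 and 1.34 CPM in leptin overexpression and 2.59 and 7.04 CPM in WT; the other 3 matched red cell genes were below the filter. The part of vessels and blood in the values of the immediate-early genes was not tested.

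Luteal genes had the order in 6 of 9, macrophage and neutrophil genes in 6 of 10 and T and B cell genes in 5 of 9, against 25.2% of all genes tested, and smooth muscle genes in 1 of 10 and oviduct or ciliated epithelium in 0 of 12. The epithelial list was read mostly in the WT libraries. Its summed level was 7.05 and 70.6 CPM in leptin overexpression and 569 and 287 CPM in WT, and 5 and 1 of its 12 genes were at 0 counts in leptin overexpression, against 0 and 0 in WT. Of the 12, 11 had lower fitted values in leptin overexpression and the same number an unadjusted edgeR p under 0.05, 0 passed the edgeR threshold and DESeq2 called 7. OVGP1, oviductin, was at 0.0653 and 1.20 CPM in leptin overexpression and 316 and 183 CPM in WT. The part of this epithelium in the values of the immediate-early genes was not tested. The epithelial adhesion gene EPCAM, the member with a higher fitted value, was at 2.55 and 57.1 CPM in leptin overexpression and 33.8 and 7.76 CPM in WT. MYH11, of smooth muscle, was at 69.9 and 107 CPM in leptin overexpression and 421 and 231 CPM in WT, ACTA2 at 232 and 367 CPM in leptin overexpression and 385.5 and 418 CPM in WT, and MYLK at 169.5 and 269 CPM in leptin overexpression and 281 and 233 CPM in WT. Of the luteal genes, RLN2, relaxin, was at 1165 and 344 CPM in leptin overexpression and 68.2 and 4503 CPM in WT. STAR, which carries cholesterol into mitochondria, was at 16546 and 23771 CPM in leptin overexpression and 7022 and 15164 CPM in WT. CYP11A1, which makes pregnenolone from cholesterol, had 9244 and 7631 CPM in leptin overexpression and 3822 and 12182 CPM in WT, and unlike FOS it had its lowest value in WT replicate 1. The macrophage gene CD163 was at 45.8 and 65.8 CPM in leptin overexpression and 49.4 and 73.0 CPM in WT. C1QB, of the same list, was at 101 and 83.1 CPM in leptin overexpression and 98.4 and 151 CPM in WT, while CSF3R, of neutrophils, was at 0.522 and 0.0747 CPM in leptin overexpression and 14.4 and 1.01 CPM in WT. CD79A, of B cells, was at 12.6 and 17.9 CPM in leptin overexpression and 12.2 and 14.02 CPM in WT. Of plasma cell genes, JCHAIN was at 4.24 and 6.72 CPM in leptin overexpression and 19.0 and 39.3 CPM in WT, and MZB1 at 0.522 and 0.523 CPM in leptin overexpression and 1.54 and 7.52 CPM in WT. Of 10 tested heat shock genes 0 had it with TMM factors and 1 with library totals alone. HSPA1A and HSPA1B, also on that list, matched no row by symbol and were not read. HSPA8 and HSP90AA1, chaperones, were highest in leptin overexpression replicate 2, at 1501 and 2086 CPM in leptin overexpression and 1688 and 1537 CPM in WT for HSPA8, and at 882 and 1474 CPM in leptin overexpression and 1145 and 810.4 CPM in WT for HSP90AA1. HSPE1, a mitochondrial chaperone, was at 385 and 482 CPM in leptin overexpression and 206 and 239 CPM in WT. Transcripts of the mitochondrial genome made up 15.1% and 16.4% of all counts in leptin overexpression and 6.89% and 12.9% in WT, an order that differs from that of FOS.

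Genes were sought whose log2 CPM, centred on the 4 libraries, lay nearest to the mean profile of the 9 genes. The candidates were 10517 other tested genes with a symbol and a mean of at least 5 CPM over the 4 libraries. Nearest were INHBA, SLC26A2, EXOC3L2, RASD2, SLCO2A1 and PTGFRN, with root mean square differences of 0.13 to 0.22 on the log2 scale over 4 libraries. INHBA, which encodes a subunit of activins and inhibins, was at 49.6 and 10.5 CPM in leptin overexpression and 15.8 and 51.3 CPM in WT. SLCO2A1, a prostaglandin transporter, was at 137 and 45.5 CPM in leptin overexpression and 42.7 and 135 CPM in WT. The profile of FOS was approached by BTG2, CCN1, CLIC5 and HKDC1, at 0.69 to 0.84. BTG2, an antiproliferative primary response gene, was at 284 and 26.1 CPM in leptin overexpression and 28.4 and 121 CPM in WT, and CCN1, a secreted matrix protein of the same response, at 111 and 9.94 CPM in leptin overexpression and 14.2 and 60.9 CPM in WT. Both were on the list of primary response genes. BTG2 was counted on a row of an assembled gene whose name rests on a predicted walrus protein. With 4 libraries such likeness is a description only.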

How the data were processed

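Poly(A)-enriched RNA was sequenced on an Illumina NovaSeq instrument from NEBNext Ultra libraries, per the labels' protocols. The deposited expected counts were estimated per gene and not scaled to depth, and the deposited FPKM were scaled to length and fragments, per the file headers. Tools listed without roles in the submitters' processing notes are HISAT2 and RSEM, edgeR 3.32.0 and DESeq2, StringTie 1.3.1, fastp 0.18.0 and Bowtie2 2.2.8; build and strand setting are not given in the sources used here. Columns named for controls were matched to WT samples of the same number, after the series design.

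Expected counts were rounded, kept with filterByExpr (13937 of 22309 genes), scaled by TMM and tested for genotype by edgeR's quasi-likelihood F test in R 4.3.3 (limma 3.58.1 and edgeR 4.0.16; no covariate, residual degrees of freedom 2, Benjamini-Hochberg adjustment over all genes tested, threshold 0.05). Fold changes are leptin overexpression over WT; the SE given is the size of the log2 fold change over the root of F, an approximation. Differences between libraries use log2 CPM with a prior count of 2. The floor of 3 counts came to 0.136 to 0.224 CPM. The genes and lists were chosen with earlier results of these data known. Named list genes were the 2 most abundant and the most changed of each list; EGR2, EGR3, GADD45A, GADD45B, OXT and those called by DESeq2 were named after their values were seen. Of the list genes called by DESeq2, 1 is not reported here. Symbols came from the table or, for 664 and 2222 rows, from tables of gene names and of RefSeq genes (Sscrofa11.1). The scripts were tested on simulated data. Alternatives were other scaling factors, other filters, limma-trend on log2(FPKM + 1) and log2(FPKM + 0.1), limma-voom, DESeq2 1.42.0, a replicate block and each library left out.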

Additional observations from a re-analysis of the deposited data

How the results depend on the processing

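With all libraries 4 genes were higher and 0 lower over all genes, and 0 of the 9 immediate-early genes passed. Genes higher and lower were 7 and 4 with upper-quartile factors, 73 and 478 with library totals alone, 84 and 168 with no filter, 100 and 205 with DESeq2, 70 and 256 with limma-trend on log2(FPKM + 1) and 105 and 413 on log2(FPKM + 0.1); limma-voom called 1 higher. Library totals alone moved the median log2 fold change of all genes to -0.43, and 1 immediate-early gene, FOSB, then passed (log2 fold change -3.18, edgeR adjusted p = 0.0359). Over the 10 alternatives that keep all libraries the adjusted p of FOSB ran from 0.0359 to 0.904. With the replicate number as a block 11 genes were higher and 12 lower, and 0 of the 9 passed. Same-numbered libraries deviated from their group means with a correlation of -0.0995. The labels do not say whether the numbers mark pairs, and a single correlation over these libraries cannot settle it. The block moved the log2 fold change to 0.67 for FOS and 0.50 for EGR1. Leaving out each library in turn gave 0 to 258 genes higher, 0 to 423 lower and 0 to 1 immediate-early genes past the threshold. The causes were not tested.

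Signs of the fitted values depended on the library left out. The log2 fold change ranged from -2.60 to 3.84 for FOS, -5.21 to 0.85 for FOSB, -1.33 to 0.27 for JUN, -0.72 to 1.09 for JUNB, -1.74 to 2.50 for EGR1, -1.01 to 0.76 for ATF3, -0.88 to 0.77 for IER2, -0.56 to 2.04 for NR4A1 and -0.74 to 0.49 for MYC. With all libraries, IER2 was at -0.17 with library totals alone, and IER2 and JUNB were at -0.37 and -0.17 on log2(FPKM + 1) and at -0.40 and -0.18 on log2(FPKM + 0.1). The median over all genes tested was lower in these fits too, at -0.43, -0.30 and -0.40. Low counts limit FOSB, at 5 counts in leptin overexpression replicate 2, and several list genes, ARC and EGR3 among them.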
